A study of Mus musculus with 13 samples.

Results

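The 10 genes described here encode core parts of the Polycomb repressive complexes, and they were followed through 3 sorted fractions of common lymphoid progenitors (CLPs), the bone marrow cells from which B cells and other lymphocytes arise. They were chosen by name, although earlier results of these data were known. They are Ezh1, Ezh2, Eed, Suz12 and Jarid2 of Polycomb repressive complex PRC2, and Bmi1, Ring1, Rnf2, Cbx2 and Cbx7 of PRC1. Each gene had its own RefSeq identifier among the 24072 in the count tables, and 10 of 10 passed the filter on low counts that left 12722 genes for testing. The cells came from wild-type C57BL/6 mouse bone marrow and were separated by flow cytometry on the surface proteins Ly6D and Gfra2. Bulk RNA sequencing gave 13 libraries: Ly6D-Gfra2- had 6, Ly6D+Gfra2- had 4 and Ly6D+Gfra2+ had 3. All 3 groups shared genotype and strain and had no other treatment in the labels. Age, sex, the number of mice per library and the full CLP gate are not given in the sources used here. Nothing in the labels says that libraries of a group came from separate animals, so p-values measure the spread between these libraries, which may be technical.

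PRC2 places methyl groups on lysine 27 of histone H3, a mark of silenced chromatin. Ezh2 and Ezh1 are its alternative catalytic subunits, Eed and Suz12 are needed for its activity, and Jarid2 is an accessory protein that helps to direct it to chromatin. PRC1 ubiquitinates histone H2A through Ring1 or Rnf2 (also called Ring1B); Bmi1 is one of its PCGF subunits, and chromobox proteins such as Cbx2 and Cbx7 read the PRC2 mark. In blood formation Polycomb proteins are known for maintaining stem and progenitor cells and for holding lineage genes silent, and Ezh2 is required in early B-cell development.

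Library titles carried 1 of 2 prefixes, P or T, whose meaning the labels do not give. Ly6D-Gfra2- had 3 libraries of each prefix and Ly6D+Gfra2- had 2 of each, whereas all 3 Ly6D+Gfra2+ libraries had prefix T. Total counts ran from 6892728 to 23705975, so that 3 counts corresponded to between 0.133 and 0.389 CPM (counts per 1000000 of the TMM-scaled library total), and between 10837 and 13969 genes had at least 1 count. The CLP genes Il7r, Flt3 and Dntt were abundant in each group. Gfra2 separated the groups, reaching 286, 514 and 364 CPM where the label says Gfra2+ and no more than 14.7 CPM elsewhere. Ly6d did not: it was at or below 8.29 CPM in 5 Ly6D-Gfra2- libraries and within the range of the Ly6D+ libraries, at 213 CPM, in the remaining one, the library labelled Ly6D-Gfra2- replicate 3. The fewest genes with a count were found in Ly6D+Gfra2- replicate 1 (11636) and Ly6D+Gfra2+ replicate 5 (10837). The values below are therefore also given without these 3 libraries where that matters. In all 3 Ly6D+Gfra2+ libraries fewer genes had a count (11873, 10837 and 12369) than in any Ly6D-Gfra2- library (12904 to 13969). Fewer cells of a type and less RNA per cell cannot be told apart in these bulk libraries.

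Ezh1 was the 1 member called (adjusted p under 0.05 in edgeR), and only between Ly6D+Gfra2+ and Ly6D-Gfra2-. Its level was lowest in Ly6D-Gfra2- cells, intermediate in Ly6D+Gfra2- cells and highest in Ly6D+Gfra2+ cells. Over the 6 Ly6D-Gfra2- libraries Ezh1 ran from 54.3 CPM through a median of 63.1 to 73.9 CPM. In Ly6D+Gfra2- replicates 1, 2, 5 and 6 it was 153, 91.6, 70.0 and 104 CPM. In Ly6D+Gfra2+ replicates 4, 5 and 6 it was 157, 199.6 and 175 CPM. All 3 Ly6D+Gfra2+ libraries lay above the other 10, although the lowest exceeded Ly6D+Gfra2- replicate 1 only narrowly, and the Ly6D+Gfra2- and Ly6D-Gfra2- ranges overlapped at Ly6D+Gfra2- replicate 5. The means were 63.3 ± 8.59 (SD, n = 6), 105 ± 35.4 (SD, n = 4) and 177 ± 21.5 CPM (SD, n = 3).

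The fitted log2 fold change of Ezh1 from Ly6D-Gfra2- to Ly6D+Gfra2+ was 1.60 (SE 0.30, 95% interval 0.96 to 2.24), with an adjusted p of 0.0167 in edgeR's two-sided quasi-likelihood test over all genes. Ezh1 was the 1 member of 10 called there, against 1.39% of all genes tested. The separate steps were not called: Ly6D+Gfra2- exceeded Ly6D-Gfra2- by 0.71 (SE 0.26, adjusted p = 0.884, edgeR), and Ly6D+Gfra2+ exceeded Ly6D+Gfra2- by 0.88 (SE 0.33, adjusted p = 0.267, edgeR). In the first step 0 members were called, against 0% of all genes; at an unadjusted p under 0.05 edgeR gave 1 member, Ezh1, against 4.71% of genes, and DESeq2 called 0 members. The second step also had 0 members called, against 0.409% of genes; again Ezh1 alone had an unadjusted p under 0.05, against 13.2% of genes, and DESeq2 called 0 members. These 3 comparisons share libraries, so their values are not independent of one another.

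Among the 11 settings other than the one reported, the Ezh1 difference between Ly6D+Gfra2+ and Ly6D-Gfra2- kept its direction in 11 and its call in 9. It was 1.42 (adjusted p = 0.0340, edgeR) without the 3 libraries that stood apart. The call was lost with only the 2 groups in the fit (adjusted p = 0.0540), with only prefix T libraries (1.50, adjusted p = 0.0992), and when either replicate 4 or replicate 6 of Ly6D-Gfra2- was left out (adjusted p = 0.0586 and 0.0601), all in edgeR.

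Markers of other cell types also varied between the groups. All 8 granulocyte and monocyte markers had counts in each group, and their summed level was 632 to 1337 CPM in Ly6D-Gfra2-, 425 to 576 CPM in Ly6D+Gfra2- and 198 to 438 CPM in Ly6D+Gfra2+ libraries. Most of it by mean level was Mpo (791.4, 408.9 and 239.3 CPM). The means of Mpo, Ctsg and Csf1r were lower at each step in that order, whereas the other 5 means were lowest in Ly6D+Gfra2-, with Lyz2 at 125.5, 52.4 and 89.6 CPM. Of 6 mature B and plasma cell markers 5 had counts in each group, with sums of 2.33 to 28.9, 1.62 to 12.6 and 11.7 to 20.1 CPM in the same order. Jchain, the joining chain of secreted antibodies, had means of 1.03, 0.462 and 9.30 CPM, Cd22 had 1.52, 2.71 and 4.39 CPM, and Ms4a1 had 0 counts in 13 of 13 libraries. The 8 erythroid and megakaryocyte markers summed to 6.74 to 266, 1.77 to 32.7 and 0 to 52.1 CPM. The globin gene Hbb-bs reached 141 CPM in Ly6D-Gfra2- replicate 5, Klf1, an erythroid transcription factor, reached 35.3 CPM in Ly6D+Gfra2+ replicate 6, and the platelet gene Pf4 had 0 counts throughout. The 6 T and NK markers summed to 60.8 to 71.4, 50.7 to 83.5 and 12.7 to 137 CPM. By mean level most of this was Nkg7 (57.7, 54.3 and 68.3 CPM). The 6 stroma and endothelium markers summed to 187 to 249.9, 159 to 331 and 198 to 274 CPM. By mean level most of this was Pecam1 (203.7, 242.5 and 210.1 CPM), and Col1a1 and Lepr had 0 counts in both Ly6D+ groups. The part of these transcripts in the Ezh1 difference was not tested.

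**Figure D1:**
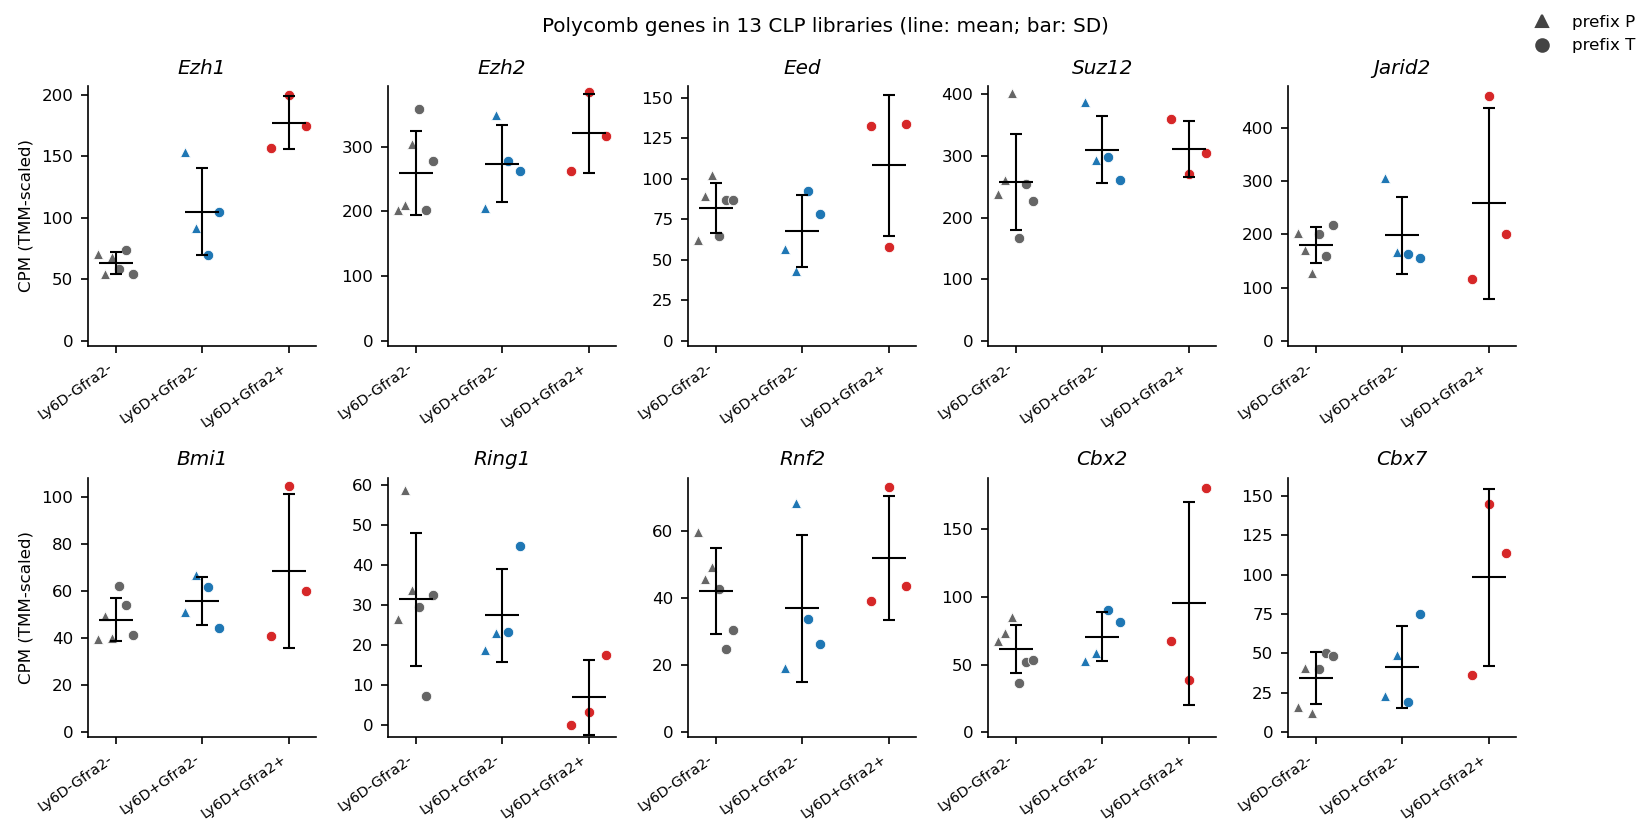
Level of each Polycomb gene in CPM (TMM-scaled; vertical axes start near 0 and differ between panels) in the 6 Ly6D-Gfra2-, 4 Ly6D+Gfra2- and 3 Ly6D+Gfra2+ libraries; each point is a library, triangles have title prefix P and circles prefix T, lines are means and bars SDs. Ezh1 is higher in the 3 Ly6D+Gfra2+ libraries (157 to 199.6 CPM) than in the other 10, and Ring1 is at 0, 3.11 and 17.5 CPM in them.

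**Figure D2:**
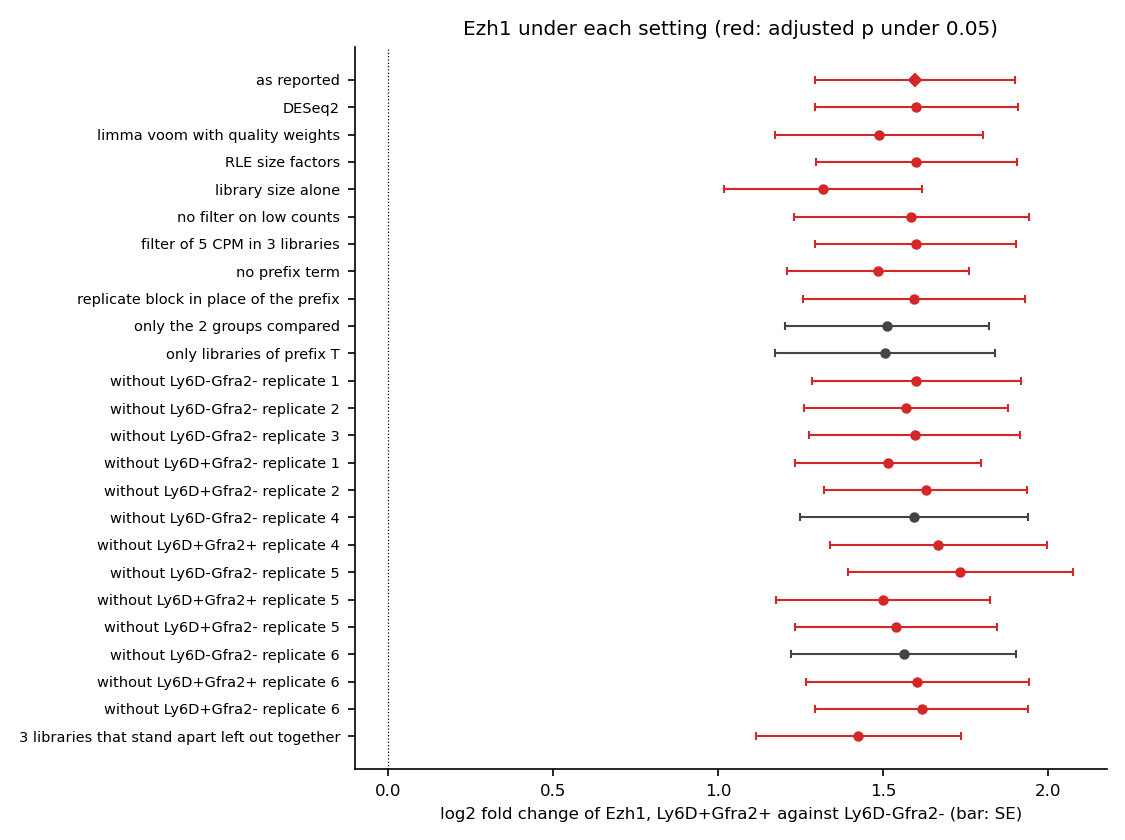
Fitted log2 fold change of Ezh1 between Ly6D+Gfra2+ and Ly6D-Gfra2- (horizontal axis; bars are SEs) as reported (diamond) and under each other setting or with a library left out (circles). Values lie between 1.32 and 1.73, and the 4 dark points are the settings in which the adjusted p was 0.05 or more.

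The start of the Ezh1 gene is shown because this was the member called. Ezh1 (NM_007970) lies on the minus strand at chr11:101191115-101226463 in GRCm38.p6. The RefSeq window is the 250 bases before its start, chr11:101226464-101226713, on the minus strand, of which 0 bases fall in annotated exons of Ezh1. Capitals mark the hexamers CACCTG and CAGGTG, the same E-box read from either strand, which is a class of sequence bound by E proteins, the helix-loop-helix factors of early lymphoid cells.
Ezh1: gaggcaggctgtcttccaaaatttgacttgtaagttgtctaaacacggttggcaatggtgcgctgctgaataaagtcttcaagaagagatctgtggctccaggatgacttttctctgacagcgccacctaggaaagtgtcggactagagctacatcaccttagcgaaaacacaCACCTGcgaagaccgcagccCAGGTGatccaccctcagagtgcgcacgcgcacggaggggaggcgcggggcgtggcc
The hexamers begin 77 and 57 bases before the start. Searched as CAGGTG or CAGCTG on both strands, such a hexamer occurred in 27.7% of 32851 RefSeq promoter windows of the same length, and 5.21% held 2 or more.

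Ezh2, the paralog of Ezh1, has no such hexamer in its window. Cbx7, Jarid2 and Ring1, which were not called in any comparison, do have such a hexamer. The Ezh2 window holds the CCAAT box, bound by the factor NF-Y and frequent at genes of dividing cells, 3 times. CCAAT is also present for Suz12, and for Cbx7 and Jarid2 beside the hexamer. The motifs therefore do not separate the called member from the others. CCAAT, searched on both strands, was found in 33.8% of the 32851 windows, and 2.79% held 3 or more. The 3 windows of 25 bases below, on the minus strand of GRCm38.p6, lie at chr6:47595106-47595130, chr6:47595080-47595104 and chr6:47595031-47595055, with CCAAT or its complement ATTGG in capitals, starting 90, 64 and 11 bases before the start from which the window was taken. The whole RefSeq gene record of Ezh2 reaches farther upstream, to base 47595270, so the 3 motifs lie inside the gene's annotated span, and 125 of the 250 bases of the window fall in GENCODE exons of Ezh2.
Ezh2 at 90: cggccctctgATTGGacgggcgccc
Ezh2 at 64: ctcgcatcctCCAATcggagaggcg
Ezh2 at 11: taaaagcgatggcgATTGGgttgct
These motifs were chosen, from a longer list that was searched, after the values were seen, and a match describes letters and not binding. RefSeq windows were found for 9 of the 10 members.

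The level of Ezh2, the main H3K27 methyltransferase of dividing cells, differed by less than the spread between libraries. It ran from 203 CPM through a median of 244 to 358 CPM in Ly6D-Gfra2- cells. The 4 Ly6D+Gfra2- libraries had 205, 349, 278 and 263 CPM, and the 3 Ly6D+Gfra2+ libraries had 262, 384 and 316 CPM. The groups overlapped throughout. From Ly6D-Gfra2- to Ly6D+Gfra2+ the log2 fold change of Ezh2 was 0.25 (95% interval -0.30 to 0.80, adjusted p = 0.725, edgeR), and with library size alone as the scaling it was -0.02. That interval does not reach the estimate for Ezh1, although the difference between the genes was not tested.

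Because both catalytic subunits were counted in the same library, their ratio does not depend on the scaling of libraries. The count ratio of Ezh2 to Ezh1 ran from 2.75 through a median of 4.16 to 6.15 in Ly6D-Gfra2- cells. In Ly6D+Gfra2- cells it was between 1.34 and 3.96, with a mean of 2.91 ± 1.23 (SD, n = 4). In Ly6D+Gfra2+ replicates 4, 5 and 6 it was 1.67, 1.93 and 1.81. The 3 Ly6D+Gfra2+ ratios lay below each of the 6 Ly6D-Gfra2- ratios, while Ly6D+Gfra2- replicate 1, which had the ratio of 1.34, lay below all of them. No p is given for this ratio, since its members were chosen with earlier results known. Per kilobase of transcript Ezh2 remained the more abundant of the pair, with mean levels of 93.1, 98.3 and 115 CPM per kilobase in the order Ly6D-Gfra2-, Ly6D+Gfra2-, Ly6D+Gfra2+, against 15.1, 25.0 and 42.2 CPM per kilobase for Ezh1.

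**Figure D3:**
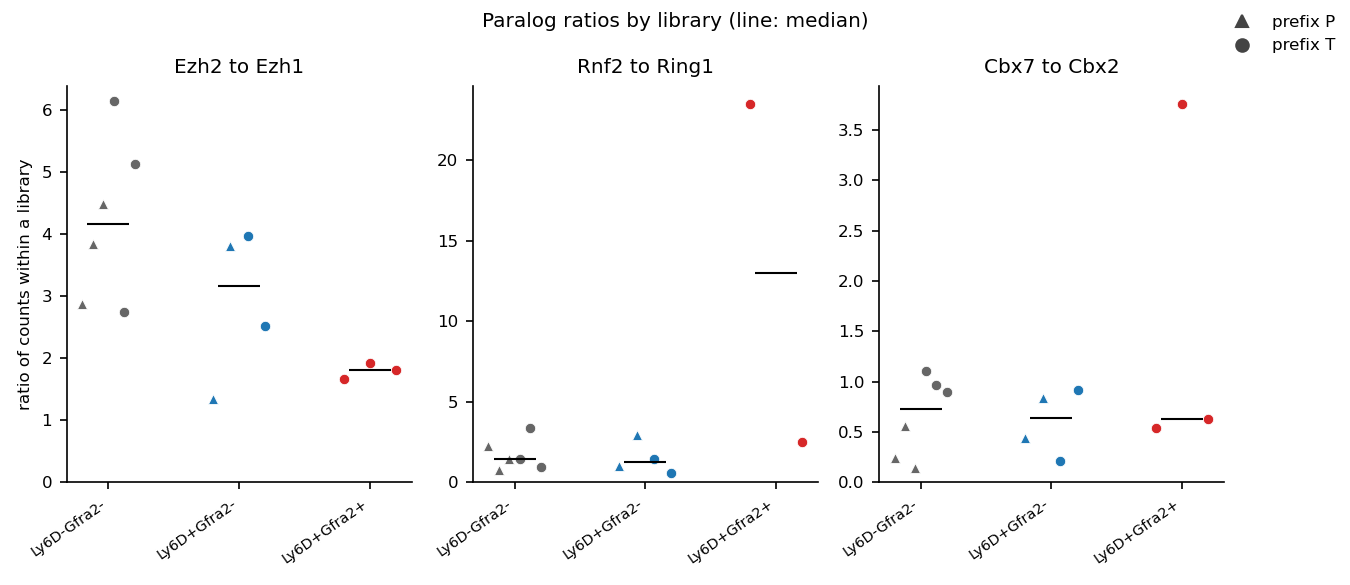
Ratio of the counts of 2 paralogs within a library (vertical axis, no unit, from 0) for Ezh2 to Ezh1, Rnf2 to Ring1 and Cbx7 to Cbx2, by group; each point is a library, triangles have prefix P and circles prefix T, and lines are medians. The Ezh2 to Ezh1 ratio is 1.67 to 1.93 in Ly6D+Gfra2+ against 2.75 to 6.15 in Ly6D-Gfra2-; Ly6D+Gfra2+ replicate 4, with Ring1 at 0, has no point in the middle panel.

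Eed and Suz12, the structural subunits of PRC2, and Jarid2 were not called in any comparison. Eed had 62.3 to 102 CPM in Ly6D-Gfra2- cells (median 86.8), 56.4, 43.2, 92.7 and 78.5 CPM in Ly6D+Gfra2- cells, and 133, 58.0 and 134 CPM in Ly6D+Gfra2+ replicates 4, 5 and 6. Replicates 4 and 6 of Ly6D+Gfra2+ were above the 10 others and replicate 5 was among the lowest. Suz12 was more even, with means of 258 ± 77.9 (SD, n = 6), 310.0 ± 53.9 (SD, n = 4) and 312 ± 45.0 CPM (SD, n = 3), and a log2 fold change between Ly6D+Gfra2+ and Ly6D-Gfra2- of 0.49 (95% interval -0.02 to 0.995, adjusted p = 0.345, edgeR).

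Jarid2 rested on single libraries. It was 127 to 217 CPM in Ly6D-Gfra2- cells (median 186), then 307, 168, 163 and 157 CPM in Ly6D+Gfra2- replicates 1, 2, 5 and 6, and 115, 459.8 and 200.3 CPM in Ly6D+Gfra2+ replicates 4, 5 and 6. The high values belonged to the 2 libraries with the fewest genes detected. Against Ly6D-Gfra2-, the Ly6D+Gfra2+ log2 fold change of Jarid2 was 0.57 (adjusted p = 0.505, edgeR), and it was -0.14 without Ly6D+Gfra2+ replicate 5.

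Of the PRC1 members, Ring1, one of the 2 alternative ubiquitin ligase subunits, was low in Ly6D+Gfra2+ cells but not called. It ran from 7.27 CPM through a median of 30.9 to 58.8 CPM in Ly6D-Gfra2- cells. In Ly6D+Gfra2- replicates 1, 2, 5 and 6 it was 18.5, 23.0, 23.1 and 44.6 CPM. In Ly6D+Gfra2+ replicates 4, 5 and 6 it was 0, 3.11 and 17.5 CPM, from 0, 26 and 162 counts. Those 3 libraries lay below all 4 Ly6D+Gfra2- libraries, but Ly6D-Gfra2- replicate 5 fell among them. A count of 0 in Ly6D+Gfra2+ replicate 4 allows up to 0.343 CPM, for counting error only. The log2 fold change of Ring1 was -1.91 (SE 1.11, adjusted p = 0.483, edgeR) against Ly6D+Gfra2- and -2.06 (SE 1.13, 95% interval -4.45 to 0.33, adjusted p = 0.405, edgeR) against Ly6D-Gfra2-. The latter was -1.48 without replicate 4 and -4.21 without replicate 6 of Ly6D+Gfra2+, so its size was set by single libraries.

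Rnf2, the other ligase subunit, showed no such low values. It had 24.7 to 59.7 CPM in Ly6D-Gfra2- cells (median 44.1), 19.1, 68.3, 33.9 and 26.2 CPM in Ly6D+Gfra2- cells and 39.1, 72.9 and 43.6 CPM in Ly6D+Gfra2+ cells, with groups that overlapped. The count ratio of Rnf2 to Ring1 was 0.776 to 3.40 in Ly6D-Gfra2- and 0.586 to 2.97 in Ly6D+Gfra2- libraries. It was 23.5 and 2.49 in Ly6D+Gfra2+ replicates 5 and 6, and replicate 4 had 342 counts of Rnf2 beside none of Ring1.

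Bmi1, which supports ligase activity and is known for self-renewal of blood stem cells, had 39.8 to 62.3 CPM in Ly6D-Gfra2- cells (median 45.3), 51.1, 66.9, 61.7 and 44.2 CPM in Ly6D+Gfra2- cells, and 41.1, 105 and 60.3 CPM in Ly6D+Gfra2+ cells. Only Ly6D+Gfra2+ replicate 5 stood outside the range of the rest. Against Ly6D+Gfra2-, the Ly6D+Gfra2+ log2 fold change of Bmi1 was 0.24 (adjusted p = 0.872, edgeR), and -0.20 without that library.

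The chromobox genes Cbx7 and Cbx2 were not called in any comparison. Cbx7 had 12.1 to 50.2 CPM in Ly6D-Gfra2- cells (median 40.5), 23.0, 49.1, 19.2 and 74.7 CPM in Ly6D+Gfra2- cells and 36.2, 145 and 114 CPM in Ly6D+Gfra2+ cells. Replicates 5 and 6 of Ly6D+Gfra2+ were above all other libraries and replicate 4 was inside their range. Its log2 fold change against Ly6D-Gfra2- was 1.21 (95% interval -0.01 to 2.42, adjusted p = 0.330, edgeR), and 0.81 without the 3 libraries that stood apart.

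Cbx2 had 36.3 to 85.5 CPM in Ly6D-Gfra2- cells (median 60.7), 52.4, 58.6, 90.2 and 81.4 CPM in Ly6D+Gfra2- cells and 67.3, 38.6 and 180.4 CPM in Ly6D+Gfra2+ cells. A single library, Ly6D+Gfra2+ replicate 6, carried the higher mean: the log2 fold change against Ly6D-Gfra2- was 0.73 (adjusted p = 0.518, edgeR) with it and -0.12 without it. The Cbx7 to Cbx2 count ratio was 0.142 to 1.11 in Ly6D-Gfra2-, 0.213 to 0.918 in Ly6D+Gfra2- and 0.537, 3.76 and 0.631 in Ly6D+Gfra2+ libraries, and its groups overlapped.

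Counted as a list, 7 of 10 members had a positive log2 fold change in the comparison of Ly6D+Gfra2- with Ly6D-Gfra2-, against 49.6% of genes (median 0.18, against -0.01 over all genes), and 0 had groups that did not overlap, against 1.53% of genes. From Ly6D+Gfra2- to Ly6D+Gfra2+, 9 of 10 were positive, against 51.1% of genes (median 0.47, against 0.03), and the groups did not overlap for 2 members, Ezh1 (higher) and Ring1 (lower), against 9.71% of genes. From Ly6D-Gfra2- to Ly6D+Gfra2+, 9 of 10 were positive, against 50.6% of genes (median 0.53, against 0.01), and Ezh1 alone had groups that did not overlap, against 10.2% of genes. Signs of single members other than Ezh1 and Suz12 changed in at least 1 comparison when a setting or library was changed.

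**Figure D4:**
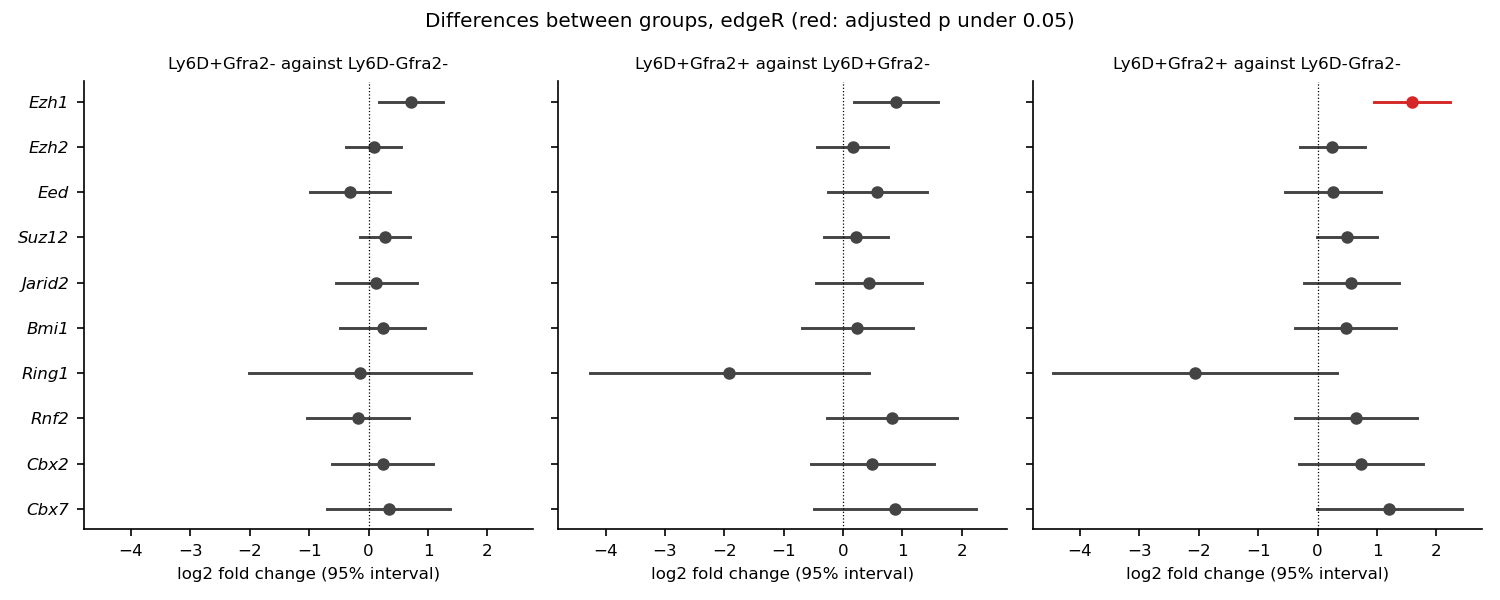
Fitted log2 fold change of each Polycomb gene with its 95% interval (horizontal axis, edgeR) in the 3 comparisons, the first-named group over the second. Ezh1 between Ly6D+Gfra2+ and Ly6D-Gfra2- (1.60) is the point in red, called at an adjusted p under 0.05, and the intervals of Ring1 are the widest.

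Ordered by mean level per kilobase of transcript in Ly6D-Gfra2- cells, Ezh2 (93.1 CPM per kilobase) came first, then Suz12 (59.1), Eed (39.7) and Jarid2 (30.0). Cbx2 (16.1), Ring1 (15.4), Ezh1 (15.1), Bmi1 (13.3), Rnf2 (13.3) and Cbx7 (12.0) followed, and these 6 did not differ from their neighbours beyond their SDs. In Ly6D+Gfra2+ cells the PRC2 genes Ezh2 (115), Suz12 (71.2) and Eed (52.4) still led, Ezh1 (42.2) lay beside Jarid2 (43.1), and Ring1 (3.38 ± 4.60, SD, n = 3) was last. Exons of 5 members, Rnf2, Ezh2, Eed, Suz12 and Cbx7, share between 100 and 261 bases with a gene on the other strand in the GENCODE annotation, and the strand used in counting is not given in the sources used here. Ezh1, Ring1, Bmi1, Jarid2 and Cbx2 share 0 bases.

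Across the 13 libraries the genes whose levels followed Ezh2 most closely were Zfp207, Zfp280d and Mki67, the last a marker of cycling cells. The measure was the root mean square difference of log2 CPM after centring, which was 0.21, 0.21 and 0.22 for these genes, against a median of 0.71 over 7287 candidates. Those nearest to Ezh1 were Crip1 (0.28), Helz (0.30) and Mta3 (0.31), against a median of 0.90. A gene that did not vary between libraries would score 0.31 against Ezh2 and 0.65 against Ezh1. Libraries share depth and composition across genes, so this is a description. The summed level of 16 cycling genes was 4744 to 6526 CPM in Ly6D-Gfra2-, 5858 to 6421 CPM in Ly6D+Gfra2- and 5486 to 6121 CPM in Ly6D+Gfra2+ libraries. These ranges overlapped. None of the 16 was called from Ly6D-Gfra2- to Ly6D+Gfra2-, against 0% of all genes, and 1 had an unadjusted edgeR p under 0.05, against 4.71%. From Ly6D+Gfra2- to Ly6D+Gfra2+ these were 0, against 0.409%, and 0, against 13.2%. From Ly6D-Gfra2- to Ly6D+Gfra2+ they were 0, against 1.39%, and 1, against 15.4%.

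The other Polycomb genes numbered 41, of which 38 could be tested, and 1 of them was called. This was Bap1, the deubiquitinase of the PR-DUB complex, which removes the PRC1 mark from histone H2A. Bap1 was 40.4 to 66.5 CPM in Ly6D-Gfra2- libraries (median 48.3), 166, 80.5, 83.6 and 60.5 CPM in Ly6D+Gfra2- libraries and 156, 153 and 66.1 CPM in Ly6D+Gfra2+ libraries. Its groups overlapped, since Ly6D+Gfra2+ replicate 6 lay just under the highest Ly6D-Gfra2- library. Going from Ly6D-Gfra2- to Ly6D+Gfra2+, Bap1 rose by 1.61 on the log2 scale (SE 0.37, adjusted p = 0.0432, edgeR). That call held in 4 of 11 other settings and in 3 of 13 fits with a library left out, where the adjusted p lay between 0.0139 and 0.110, and it was lost without the 3 libraries that stood apart (1.31, adjusted p = 0.112, edgeR).

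In Ly6D+Gfra2+ against Ly6D-Gfra2-, 24 of the 38 other genes were positive, against 50.6% of all genes (median 0.12, against 0.01), and the 1 called compares with 1.39% of all genes. There were 7 higher and 3 lower at an unadjusted p under 0.05, against 15.4% of all genes. Foxk2, a DNA-binding partner of PR-DUB, was not called (1.31, adjusted p = 0.159, edgeR). Foxk2 was 368 CPM in Ly6D+Gfra2+ replicate 5 and 88.9 and 136 CPM in the other 2, and its log2 fold change was 0.50 without replicate 5. Pcgf1, the PCGF subunit of the BCOR-containing PRC1, had 1, 0 and 3 counts in the Ly6D+Gfra2+ libraries, at or under the limit of 3 counts, and between 17 and 148 counts in each of the other 10. The groups of Pcgf1 did not overlap in either comparison with Ly6D+Gfra2+. The same held for 10.2% of all genes against Ly6D-Gfra2- and 9.71% against Ly6D+Gfra2-. Pcgf1 was not called by edgeR (adjusted p = 0.149 against Ly6D-Gfra2- and 0.256 against Ly6D+Gfra2-), while DESeq2 called it against Ly6D-Gfra2- (adjusted p = 0.0125).

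In Ly6D+Gfra2+ against Ly6D+Gfra2-, 16 of 38 were positive, against 51.1% of all genes (median -0.13, against 0.03), and 0 were called, against 0.409%. At an unadjusted p under 0.05 there were 1 higher and 5 lower, against 13.2% of all genes, and DESeq2 also called 0. Phf19, a PRC2 accessory protein that binds methylated H3K36, was 12.6, 0.120 and 2.92 CPM in Ly6D+Gfra2+ replicates 4, 5 and 6 and at least 18.2 CPM in each of the other 10 libraries. That log2 fold change of Phf19 was -2.26 (SE 0.97, adjusted p = 0.331, edgeR). Epop, another PRC2 accessory gene, had -2.85 (adjusted p = 0.323, edgeR), and -0.61 without Ly6D+Gfra2- replicate 5, where it reached 58.7 CPM. In Ly6D+Gfra2- against Ly6D-Gfra2-, 25 of 38 were positive, against 49.6% of all genes (median 0.20, against -0.01), and 0 were called, against 0%. At an unadjusted p under 0.05 there were 2, against 4.71% of all genes, and DESeq2 called 0. Of the genes named here, Bap1 (0.95, adjusted p = 0.807, edgeR) was under that unadjusted limit. Mga (0.29) and Scmh1 (0.56) were not, with unadjusted p of 0.0605 and 0.0817 in edgeR. Both had an adjusted p of 0.999 in edgeR. Scmh1, a PRC1 gene, was the 1 of the 38 whose groups did not overlap, against 1.53% of all genes. It was at 102 to 128 CPM against 54.8 to 87.5 CPM.

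**Figure D5:**
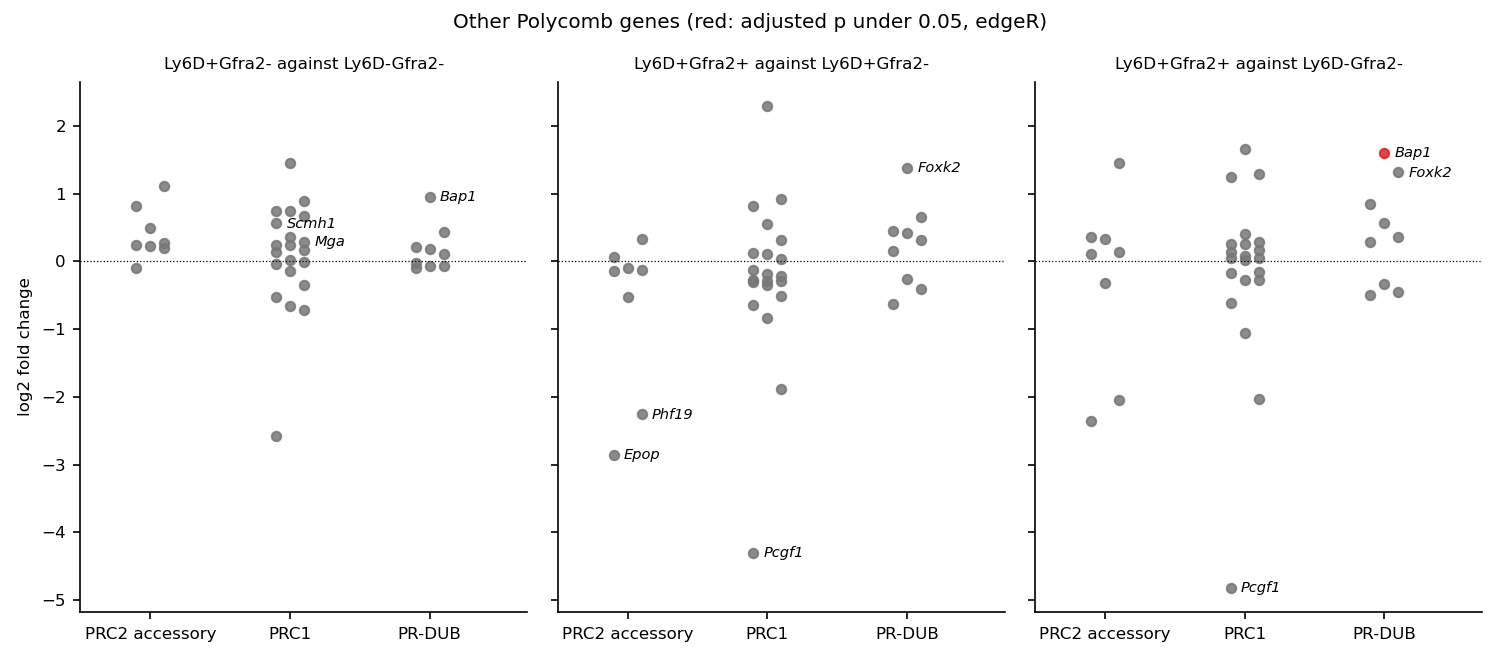
Fitted log2 fold change (vertical axis, edgeR) of the 38 other Polycomb genes tested, by complex (PRC2 accessory proteins, PRC1 and the deubiquitinase complex PR-DUB), in the 3 comparisons; each point is a gene, and the genes described in the text are named. Bap1 between Ly6D+Gfra2+ and Ly6D-Gfra2- (1.61) is the point in red, and Pcgf1 is the lowest point in both comparisons with Ly6D+Gfra2+.

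Genes that oppose Polycomb, the H3K27 demethylases and the trithorax-group methyltransferase genes, were listed as 11, and 10 could be tested. None of the 10 was called by edgeR in any comparison. Between Ly6D+Gfra2- and Ly6D-Gfra2- their median was 0.34, 10 of 10 were positive, against 49.6% of all genes, and 1 had an unadjusted p under 0.05, against 4.71% (0% of all genes were called). For Ly6D+Gfra2+ over Ly6D+Gfra2- the median was -0.18, 3 were positive, against 51.1%, and 0 had an unadjusted p under 0.05, against 13.2% (0.409% called). For Ly6D+Gfra2+ over Ly6D-Gfra2- it was -0.06, 5 were positive, against 50.6%, and 2 had an unadjusted p under 0.05, against 15.4% (1.39% called).

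Of 8 genes known as Polycomb targets in blood cells, 6 could be tested and 1, Ebf1, was called between Ly6D+Gfra2+ and Ly6D-Gfra2-, against 1.39% of all genes, with 0 called in the other comparisons. Ebf1, a transcription factor that commits cells to the B lineage, was 12.8, 9.20, 127, 26.5, 42.0 and 17.8 CPM in Ly6D-Gfra2- replicates 1 to 6. It was 92.6 to 165 CPM in Ly6D+Gfra2- and 753 to 890.5 CPM in Ly6D+Gfra2+ libraries. The Ebf1 difference of Ly6D+Gfra2+ from Ly6D-Gfra2-, as a log2 fold change, was 4.66 (SE 0.69, adjusted p = 0.00325, edgeR), and 5.07 without the library labelled Ly6D-Gfra2- replicate 3, whose 127 CPM was within the Ly6D+Gfra2- range. Pax5, which acts after Ebf1, was 90.4, 53.8 and 101 CPM in Ly6D+Gfra2+ cells and no more than 6.61 CPM in any other library, and was not called (adjusted p = 0.0643 against Ly6D-Gfra2- and 0.0569 against Ly6D+Gfra2-, edgeR).

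The progenitor genes gave lower or mixed values and no calls. Hmga2, a chromatin protein of fetal-type progenitors, was 75.5 to 189 CPM in Ly6D-Gfra2-, 63.6 to 141 CPM in Ly6D+Gfra2- and 35.8, 59.5 and 116 CPM in Ly6D+Gfra2+ libraries (-1.29 between the last and the first, adjusted p = 0.112, edgeR). Hoxa9 was 59.3 to 108 CPM in Ly6D-Gfra2- and 22.0, 52.4 and 38.3 CPM in Ly6D+Gfra2+ libraries (-0.95, adjusted p = 0.357, edgeR). These 2 groups did not overlap for Hoxa9, nor for 10.2% of all genes. Hoxa10 was 0, 0.239 and 5.30 CPM in Ly6D+Gfra2+ libraries and 103 CPM in Ly6D+Gfra2- replicate 1 alone, and Meis1 was 93.0 to 107 CPM in Ly6D+Gfra2+, inside the range of the other libraries. The cell cycle inhibitor genes Cdkn2a and Cdkn2b, which PRC1 is known to repress, were at or near 0: Cdkn2a had 2 counts in Ly6D-Gfra2- replicate 5 and 0 in the other 12 libraries, and Cdkn2b had 0 in all 13.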

How the data were processed

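RNA counts per RefSeq transcript were deposited by the authors as 1 table per library. Total RNA was extracted from sorted cells and made into libraries with NuGEN kits, per the labels' protocols; the submitters' processing notes give the build mm10 and, without versions, the tools HOMER, HISAT, TopHat, DESeq and FastQC. The deposited counts are whole numbers and were not normalized. Of 24072 identifiers, 23811 were named from RefSeq, 148 through GENCODE, and 113 were left unnamed.

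edgeR 4.0.16 in R 4.3.3 was fitted to all 13 libraries (TMM, quasi-likelihood, group and title prefix as terms). Genes were kept with filterByExpr (minimum count 10, minimum total 15), and p-values, two-sided, were adjusted over 12722 genes by Benjamini-Hochberg, with calls at 0.05. CPM is counts per 1000000 of the TMM-scaled library total. Levels per kilobase used the length of the matched GENCODE transcript. No depth interval is given beyond the limit of 3 counts, which covers counting error only. The fit was tested on simulated data. Alternatives were DESeq2 1.42.0, limma 3.58.1 (voom with quality weights), other scalings, filters and terms, and leaving out libraries. No 2 libraries of a group agreed within sampling noise.

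All 10 members are described, whatever their values. Of the other lists, the text names genes that were called, the 4 other Polycomb genes with the smallest p in each comparison, all measured targets, and the 3 genes nearest in pattern to Ezh1 and to Ezh2, among genes of at least 20 CPM. A gene that this rule names is not reported here. The members and lists were chosen with earlier results of these data known.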

Additional observations from a re-analysis of the deposited data

Results flagged for a closer look

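Jarid2 in Ly6D+Gfra2- replicate 1, at 306.89 CPM, stood far from the other 3 libraries of its group: the gap to the nearest was 0.925 of the group's range. Among 26 groups of values examined this way it was the 1 that stood out, and chance alone gives about 1 in 20. Ly6D+Gfra2+ (n = 3) had too few libraries for this rule, so its values could not be flagged.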

How the results depend on the processing

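Members called between Ly6D+Gfra2+ and Ly6D-Gfra2- (1, Ezh1) fell to 0 with only the 2 groups compared and with only prefix T libraries, and numbered 0 to 1 with a library left out. Other Polycomb genes called there (1) became 3 with DESeq2, Bap1 and Pcgf1 among them. They were 0 with voom, library size alone, no prefix term, the replicate block, only the 2 groups, only prefix T or without the 3 libraries that stood apart, and 0 to 1 with a library left out. The cause was not tested.

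All genes called from Ly6D-Gfra2- to Ly6D+Gfra2- (0 in edgeR, 599 at an unadjusted p under 0.05) became 20 with DESeq2, 1 with voom, 9 with no filter, 8 with the replicate block, 1 with prefix T alone, 23 without the 3 libraries and 0 to 16 with a library left out. From Ly6D+Gfra2- to Ly6D+Gfra2+ the 52 became 545 with DESeq2, 25 with voom, 164 with no filter, 103 with no prefix term, 25 with the replicate block, 8 with only the 2 groups, 9 with prefix T alone and 12 to 184 with a library left out. From Ly6D-Gfra2- to Ly6D+Gfra2+ the 177 became 789 with DESeq2, 109 with voom, 111 with library size alone, 318 with no filter, 92 with the replicate block, 72 with only the 2 groups, 62 with prefix T alone and 49 to 372 with a library left out.

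Signs turned for uncalled log2 fold changes only. From Ly6D-Gfra2- to Ly6D+Gfra2-, Jarid2 was -0.048 with voom, -0.13 with the replicate block, -0.27 with prefix T alone, -0.23 without the 3 libraries and -0.16 to 0.24 with a library left out. Ring1 was 0.092 with voom, 0.56 with prefix T alone, 0.095 without the 3 and -0.54 to 0.10 with a library left out. Rnf2 was 0.013 with voom, 0.062 without the 3 and -0.57 to 0.093 with a library left out. Ezh2 was -0.048 with prefix T alone and -0.11 to 0.19 with a library left out, Eed 0.11 with prefix T alone, Cbx2 -0.44 with prefix P alone and Cbx7 -0.041 with the replicate block. From Ly6D+Gfra2- to Ly6D+Gfra2+, Bmi1 was -0.015 with voom, -0.19 without the 3 and -0.20 to 0.50 with a library left out, and Ezh2 was -0.026 with library size alone and -0.090 without the 3. Jarid2 was -0.042 without the 3 and -0.27 to 0.78 with a library left out, and Cbx2 was -0.36 to 0.87. From Ly6D-Gfra2- to Ly6D+Gfra2+, Ezh2 was -0.018 with library size alone, Jarid2 was -0.27 without the 3 and -0.14 to 0.91 with a library left out, and Cbx2 was -0.12 to 1.10.

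Same-numbered libraries had correlated deviations of -0.044 to 0.14 over 9 pairs, 1 of them over 0.1. Differently numbered libraries of the same prefix had -0.027 to 0.12 over 18 pairs, also 1 over 0.1. The reported fit therefore does not pair libraries by number. These deviations are from means of few libraries, so they cannot exclude pairing. In prefix T titles the number follows the letter S and recurs across groups, with a meaning the labels do not give. With the replicate block Ezh1 was 1.59 (adjusted p = 0.0478, edgeR). Library size alone moved the median of all genes to -0.25 between Ly6D+Gfra2+ and Ly6D-Gfra2-, and Ezh1 was then 1.32 (adjusted p = 0.0459, edgeR). DESeq2 gave no p for Ebf1. Leaving out the 3 libraries was chosen after seeing the data. Pcgf1, at or under 3 counts in the Ly6D+Gfra2+ libraries, and Ring1 in replicate 4 of that group, at 0, lie at the counting limit. Those libraries had total counts of 9287598, 9771228 and 9400568. Ly6D-Gfra2- replicates 4, 5 and 6, also of prefix T, had totals of 7732049, 10847792 and 6892728, with 247, 88 and 250 counts of Ring1. The part of depth in the low values was not tested. Fewer genes had a count in each Ly6D+Gfra2+ library than in any Ly6D-Gfra2- library, and the part of this in the low values was not tested.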
